A study of Mus musculus with 92 samples.

Results

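The genes described here are the transcriptional end of the Hippo pathway in mouse intestinal epithelium: the coactivators Yap1 and Wwtr1 (which encodes TAZ), the 4 TEAD transcription factors Tead1 to Tead4, the kinases Lats1 and Lats2, and Amotl2 and Ankrd1, a pair of genes widely used as readouts of YAP and TEAD activity. They were chosen by gene name, 10 of the 54532 genes in the count tables, and each name matched 1 gene identifier. They were followed through 92 RNA-seq libraries in 21 groups from mice, adult organoids and fetal spheroids in which Eif4g2, a translation initiation factor of the eIF4G family, was deleted, and from adult organoids given A-485, an inhibitor of the p300 and CBP acetyltransferases.

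In the Hippo pathway, an upstream kinase pair (MST1/2, encoded by Stk4 and Stk3) with scaffold proteins activates LATS1 and LATS2, and LATS phosphorylation keeps YAP and TAZ out of the nucleus. When LATS activity is low, YAP and TAZ enter the nucleus and, having no DNA-binding domain, act through TEAD proteins, which recognise the MCAT element. Several Hippo genes, among them Lats2 and Amotl2, are themselves YAP target genes, so that the pathway feeds back on itself. In the gut, YAP activity is known for the transient fetal-like state of the epithelium during repair after injury, and fetal spheroids are cultures in a state of that kind. The readouts below are transcript levels: they do not measure phosphorylation, location or amount of any protein.

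All deletions were made with a tamoxifen-inducible Cre and a loxP-flanked (flox) Eif4g2 allele. In the first tissue set, Rosa26-CreER, expressed in all tissues, was combined with Eif4g2 flox/flox (homozygous, 4 crypt and 5 villus libraries) or flox/+ (heterozygous, 5 and 5), and the mice were sampled on day 9 after the first tamoxifen dose. In the second, Vil1-CreER, expressed in the intestinal epithelium, was used (homozygous 3 and 6, heterozygous 4 and 4), tamoxifen was given at 100 mg/kg daily for 4 days and the labelled time point is 3 months, so driver and time cannot be told apart between the sets. The heterozygous controls also carried Cre, took tamoxifen and lost 1 Eif4g2 copy. Organoid set 1 held 3 Rosa26-CreER flox/flox lines given DMSO or 0.5 µM 4-hydroxytamoxifen (4-OHT) for 24 h and sampled on day 6. Organoid set 2 held flox/flox, flox/+ and CreER-only (Eif4g2 +/+) lines, 4 libraries each, all given 4-OHT. Fetal spheroids of 6 flox/flox and 5 flox/+ lines with Rosa26-CreER were each given DMSO or 4-OHT and sampled on day 6. All cultures were kept in ENR medium (EGF, Noggin and R-spondin). In the A-485 series, 4 lines with Rosa26-CreER (line 1 Eif4g2 +/+, lines 2 to 4 flox/flox, none given 4-OHT) received DMSO or 3, 5 or 10 µM A-485 and were sampled on day 4. Line numbers pair samples from the same line. Some spheroid lines of both genotypes share a number stem in their labels, and how such lines are related was not given.

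The 250 bases upstream of the RefSeq transcription start (RefSeq, GRCm38.p6) are shown for both coactivators, both readout genes, Tead2 and Lats2, as examples with and without the core of the MCAT element to which TEAD proteins bind. Each runs 5′ to 3′ on the gene's own strand, and capitals mark GGAATG or, on the opposite strand, CATTCC. Of these 6 stretches, those of Yap1, Wwtr1, Amotl2 and Ankrd1 hold it and those of Tead2 and Lats2 do not. Whether presence of the letters goes with the direction of change described below was not tested. In organoid set 1, Yap1, Wwtr1, Lats2, Amotl2 and Ankrd1, each with a copy in a full window of 300 bases, were called higher. Tead3, with 4 copies, was called in 1 culture comparison of deletion. Of the members without a copy in their windows, Lats1 rose and Tead2 fell in culture.
Ankrd1, chr19:36119845-36120094, minus strand: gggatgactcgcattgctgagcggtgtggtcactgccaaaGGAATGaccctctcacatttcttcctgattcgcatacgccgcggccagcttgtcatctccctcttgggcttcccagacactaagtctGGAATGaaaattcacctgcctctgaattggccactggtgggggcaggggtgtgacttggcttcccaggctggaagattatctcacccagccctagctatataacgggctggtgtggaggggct
Amotl2, chr9:102717554-102717803, plus strand, inside the annotated gene: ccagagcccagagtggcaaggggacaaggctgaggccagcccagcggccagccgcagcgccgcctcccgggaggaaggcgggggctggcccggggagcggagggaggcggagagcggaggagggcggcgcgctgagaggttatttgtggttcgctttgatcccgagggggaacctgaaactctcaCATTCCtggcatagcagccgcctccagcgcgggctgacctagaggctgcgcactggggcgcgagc
Wwtr1, chr3:57575877-57576126, minus strand: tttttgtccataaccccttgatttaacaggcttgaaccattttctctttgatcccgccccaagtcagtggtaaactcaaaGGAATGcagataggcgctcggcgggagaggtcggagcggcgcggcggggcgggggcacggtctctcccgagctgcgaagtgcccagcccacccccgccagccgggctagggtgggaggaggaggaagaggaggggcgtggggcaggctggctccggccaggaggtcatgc
Yap1, chr9:8004597-8004846, minus strand: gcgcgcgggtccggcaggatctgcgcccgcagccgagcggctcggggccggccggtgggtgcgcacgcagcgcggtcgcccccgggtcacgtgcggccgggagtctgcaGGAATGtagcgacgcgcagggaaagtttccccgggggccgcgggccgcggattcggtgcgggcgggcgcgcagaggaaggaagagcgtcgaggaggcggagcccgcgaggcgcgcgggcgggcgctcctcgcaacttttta
Tead2, chr7:45215542-45215791, plus strand: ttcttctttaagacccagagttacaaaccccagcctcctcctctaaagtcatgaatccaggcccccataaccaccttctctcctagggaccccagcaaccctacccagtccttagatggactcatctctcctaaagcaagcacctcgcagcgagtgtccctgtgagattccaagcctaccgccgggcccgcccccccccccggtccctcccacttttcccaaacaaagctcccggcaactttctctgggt
Lats2, chr14:57746124-57746373, minus strand, 1 of its 2 starts: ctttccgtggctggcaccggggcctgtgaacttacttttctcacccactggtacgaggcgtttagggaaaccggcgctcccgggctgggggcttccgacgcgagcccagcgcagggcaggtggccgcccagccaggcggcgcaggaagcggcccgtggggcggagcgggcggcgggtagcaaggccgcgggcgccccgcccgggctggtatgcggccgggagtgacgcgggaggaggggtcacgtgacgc
The element lies 210 and 123 bases before the Ankrd1 start, 65 before the Amotl2 start, 170 before the Wwtr1 start shown and 141 before the Yap1 start. Wwtr1 has another start, with the element 136 bases before it. Like the Amotl2 stretch, the Lats2 stretch shown lies inside the annotated gene. In the full windows of 300 bases, which reach 50 bases past the start, Lats2 also held GGAATG, 4 bases after 1 of its starts, and Tead3 held it once after and 3 times before its starts, counting its 3 windows. No copy was found in the Tead2 and Lats1 windows, and Tead1 and Tead4 are named only. In all, 8 of the 12 member windows held the motif, against 14.7% of all 32851 windows. The Wwtr1 windows overlap and hold the same copy, which is counted once in each. By gene, 6 of 8 held it in at least 1 window, and the like share over all genes is not given here. A match of these letters is a description and shows no binding.

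Totals ran from 8652040 to 37611100 counts per library. They were 22458800 to 37611100 in tissue, 14790200 to 32352500 in the organoid sets and spheroids, and lowest, 8652040 to 16436100, in the A-485 series. Levels are given as CPM, read counts scaled to library size with TMM factors. The tissue, organoid, spheroid and A-485 sets were scaled separately, so levels of different sets are set side by side without a test. Eif4g2 itself followed its labels in every group. It stood at 67.9 to 98.3 CPM in homozygous against 337 to 357 in heterozygous Rosa26-CreER crypts, at 144 to 148 with 4-OHT against 705 to 794 with DMSO in organoid set 1, and at 84.9 to 224 against 706 to 1202 in flox/flox spheroids, where the deletion therefore left more variable residues. Deletion by Vil1-CreER left more (231 to 239.8 against 437 to 488 in crypts). Summed markers of epithelium (6 genes) were 3575 CPM or more in every group. Summed stromal markers (10 genes) were 2.43 CPM or less in all organoid libraries, but 23.9 to 2023 in Rosa26-CreER crypts and up to 228 in flox/+ spheroids. In bulk RNA, fewer cells of a type and less RNA per cell cannot be told apart. Mice and lines are separate sources, but nothing in the labels shows how far the 4 CreER-only libraries of organoid set 2 came from separate animals, and p-values there measure the spread between these libraries.

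Read per kilobase of transcript, which allows genes to be set beside each other, Yap1 was the more abundant coactivator in all groups but 2 (10 µM A-485, and flox/+ spheroids with 4-OHT, at 19.97 against 19.81 mean CPM per kb), and the 4 TEAD genes differed in make-up between tissues. Yap1 stood at 7.93 to 9.86 mean CPM per kb in all tissue groups but the homozygous Vil1-CreER crypts (11.7), and at 14.5 to 28.7 in culture. Wwtr1 stood at 0.0601 to 1.6 CPM per kb in tissue, 2.44 to 13.3 in organoids without A-485, and 10.3 to 26.8 in spheroids. Wwtr1 thus made up 0.712% ± 0.444 (SD, n = 4) of the summed Yap1 and Wwtr1 level in heterozygous Vil1-CreER villi, 7.14% ± 1.81 (n = 4) in their crypts, and 43.1% ± 12.7 (n = 5) in flox/+ spheroids with DMSO. Only with 10 µM A-485 did its mean share pass that of Yap1, at 52.6% ± 3.38 (n = 4). Without division by gene length that share was 36.5% ± 3.18, so which coactivator leads there depends on the division.

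As a share of the summed TEAD level per kb, which does not depend on library scaling, Tead3 led in villi with 79.2% ± 7.25 (n = 5) in heterozygous Rosa26-CreER and 70.3% ± 9.28 (n = 4) in heterozygous Vil1-CreER mice. Tead2 was close to absent there, at 0.664% ± 0.96 and 1.17% ± 0.714, but made up 17.1% ± 1.65 and 17.3% ± 3.91 of the family in the crypts of the same kinds of mice and 32.2% ± 1.27 (n = 4) in CreER-only organoids. Tead4 was a minor form in tissue, at most 9.49% ± 7.06 (n = 4) in any group, but made up 27.8% ± 7.6 (n = 6) in flox/flox spheroids with DMSO. Its mean share was largest in organoid set 1 with 4-OHT, at 41.5% ± 3.9 (n = 3) beside 38.4% ± 1.98 for Tead1. Tead4 made up 40.4% ± 4.27 (n = 6) in flox/flox spheroids with 4-OHT. In flox/+ spheroids its share was 31.1% ± 13.3 with DMSO and 33.7% ± 9.6 with 4-OHT (n = 5 each). Each deletion that was made in crypts, organoids or flox/flox spheroids came with a Tead2 share several times smaller. It was 5.42% ± 2.16 in homozygous Rosa26-CreER crypts, 3.85% ± 1.24 in homozygous Vil1-CreER crypts, 1.92% ± 0.31 against 18.2% ± 1.61 in organoid set 1, 5.14% ± 0.29 against 26.5% ± 5.11 in flox/+ organoids, and 4.53% ± 1.61 against 19.5% ± 8.65 in flox/flox spheroids. With A-485 the share was 33.0% ± 4.69 in DMSO, 41.3% ± 3.04 at 3 µM, 15.3% ± 5.72 at 5 µM and 0.92% ± 0.724 at 10 µM. These shares are means over libraries and carry no test.

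**Figure D1:**
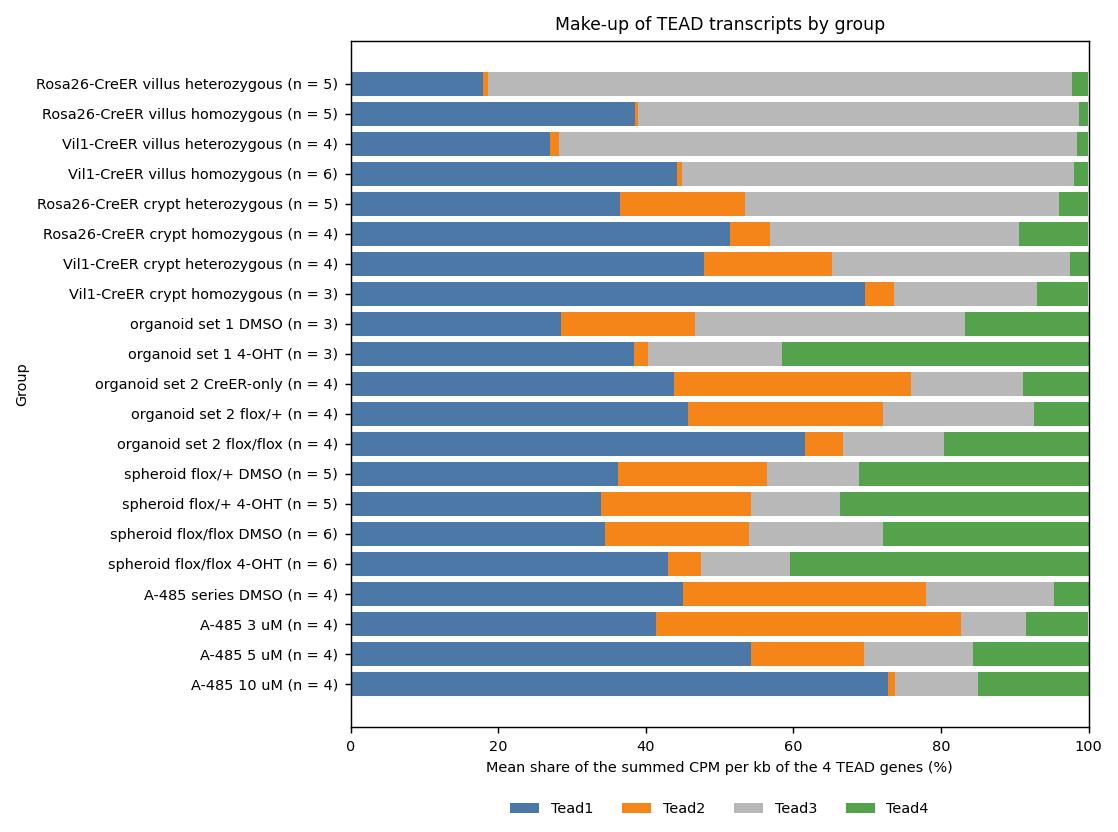
Mean share of each TEAD gene in the summed TEAD level (CPM per kb, percent, x axis) in the 21 groups (y axis), as stacked bars. Tead3 fills most of the villus bars (79.2% and 70.3% in the heterozygous groups), and the Tead2 segment is short in the homozygous crypts, the deleted cultures and at 10 µM A-485 (0.92%).

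Among the deletion comparisons, the cultures moved most members. A member counts as changed at an adjusted p under 0.05 in edgeR's quasi-likelihood test, with Benjamini-Hochberg adjustment over all tested genes. In organoid set 1, 9 of 10 tested members changed (8 higher, 1 lower), where 35.4% of all tested genes were called. In organoid set 2, 8 of 9 changed between flox/flox and flox/+ (46.8% of all genes), and 6 of 9 between flox/flox and CreER-only (45.3%). These comparisons share the flox/flox libraries. In flox/flox spheroids 8 of 10 changed with 4-OHT (19.1% of all genes). No member was called where only 1 Eif4g2 copy was lost or where no deletion was made. That was 0 of 9 for flox/+ against CreER-only organoids (0.113% of genes called). There 4 members had an unadjusted p under 0.05, as did 1481 of all 14220 tested genes. It was 0 of 10 for 4-OHT in flox/+ spheroids (0.0%), with 0 members and 15 of 15032 genes at that unadjusted p. For flox/flox against flox/+ spheroids with DMSO it was 0 of 10 (0.0%), with 1 member and 1084 of 15032 genes. Between the genotypes with 4-OHT, 2 of 10 changed in spheroids (10.5%), Yap1 and Tead2. The 8 not called had log2 fold changes from -0.30 to 0.78. With DMSO the 10 members ran from -0.77 to -0.00766 (median -0.54) in flox/flox against flox/+ spheroids. The rises of other members in flox/flox spheroids, given below, are thus against DMSO in the same lines and were not called against flox/+ with 4-OHT. In tissue, 3 of 9 tested members changed in Rosa26-CreER crypts (20.2% of all genes), 3 of 7 in Rosa26-CreER villi (33.2%), 5 of 9 in Vil1-CreER crypts (29.3%) and 1 of 7 in Vil1-CreER villi (42.5%).

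**Figure D2:**
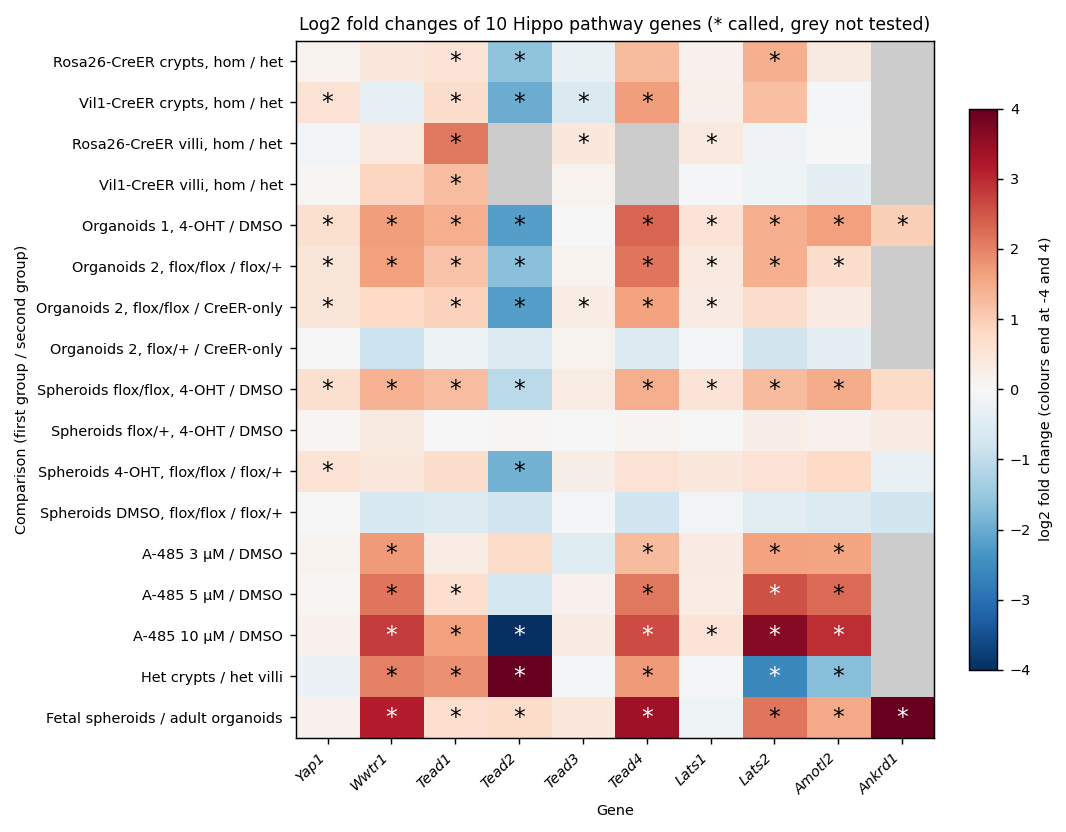
Log2 fold change (colour, ending at -4 and 4) of the 10 members (columns) in the 17 comparisons of 2 groups (rows); an asterisk marks an adjusted p under 0.05 and grey a member not tested. Tead2 is lower and Tead1, Tead4 and Lats2 are higher in the organoid and flox/flox spheroid rows of deletion, while the rows of flox/+ against CreER-only organoids and of 4-OHT in flox/+ spheroids hold no asterisk.

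Yap1 (chromosome 9, 7931999 to 8004596, minus strand; GRCm38 throughout) rose by a similar amount in each culture set. In organoid set 1 the 3 lines read 137, 128 and 137 CPM with DMSO and 218, 199 and 205 with 4-OHT. Every 4-OHT library was above every DMSO library, with a log2 fold change of 0.63 ± 0.08 (SE, adjusted p = 0.00127). In organoid set 2 the flox/flox libraries read 257.5, 256, 252 and 232 CPM, against 176, 170.1, 181.5 and 181 in flox/+ and 181, 183.5, 174.5 and 173 in CreER-only. The flox/+ and CreER-only ranges overlapped each other and neither reached the flox/flox range, which lay 0.50 ± 0.05 (adjusted p = 1.98e-06) above flox/+ and 0.49 ± 0.05 (adjusted p = 2.27e-06) above CreER-only on the log2 scale. Flox/flox spheroids ran from 135 to 191 CPM (median 174) with DMSO and from 227 to 311 (median 263) with 4-OHT. The groups did not overlap, all 6 lines were higher with 4-OHT, and the difference was 0.63 ± 0.11 (adjusted p = 0.000547). In flox/+ spheroids the 5 lines read 154.5, 199, 188, 156 and 163 CPM with DMSO and 172.5, 213, 188.5, 162 and 181 with 4-OHT, and the ranges overlapped almost entirely. All 5 lines were higher with 4-OHT, by 1.001- to 1.117-fold, a difference that was not called. With 4-OHT, flox/flox spheroids stood above flox/+ by 0.54 ± 0.12 (adjusted p = 0.00542). That call was lost in 2 fits of these groups alone. They took as covariate the number stem of the lines (adjusted p = 0.122) or the replicate number (0.0859), which does not mark a shared line between genotypes.

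Wwtr1 (chromosome 3, 57455649 to 57575910, minus strand), the gene for TAZ, rose by a larger factor from a lower level and varied more between lines. The organoid set 1 libraries read 22.7, 25.8 and 10.5 CPM with DMSO and 79.4, 61.5 and 49.3 with 4-OHT. All 3 lines were higher by 2.39- to 4.67-fold, and the log2 fold change was 1.68 ± 0.33 (adjusted p = 0.00755). In organoid set 2, flox/flox read 20.65, 24, 55.7 and 43.2 CPM and flox/+ 13.1, 8.25, 16.6 and 8.73, a difference of 1.63 ± 0.39 (adjusted p = 0.00599) without overlap. The CreER-only libraries read 25.75, 28, 14.5 and 15.1 CPM and overlapped the flox/flox range, and that comparison did not pass the test. Wwtr1 in flox/flox spheroids ran from 19.7 to 81.8 CPM (median 42.9) with DMSO and from 59.4 to 199 (median 135) with 4-OHT. The ranges overlapped although all 6 lines were higher, by 2.03- to 3.8-fold, and the difference was 1.39 ± 0.43 (adjusted p = 0.0296). It is 1 of the calls that did not hold each time a single library was left out (adjusted p up to 0.0723). The call was kept with line as a block.

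Tead1 (chromosome 7, 112679318 to 112906807, plus strand), the TEAD gene with the highest level per kb in most culture groups, was the member called most often. It passed the test in all 4 tissue comparisons, all 3 flox/flox organoid comparisons and in flox/flox spheroids. Organoid set 1 read 54.4, 59.1 and 46.4 CPM with DMSO and 166, 144 and 125 with 4-OHT. The groups were far apart, by 1.44 ± 0.13 (adjusted p = 0.000559). Flox/flox organoids of set 2 read 166.5, 160.4, 153 and 145 CPM against 66.5, 78.4, 73.5 and 68 in flox/+ and 83.2, 83, 79.8 and 85.9 in CreER-only. The difference was 1.12 ± 0.06 (adjusted p = 5.42e-09) against the first and 0.91 ± 0.06 (adjusted p = 4.26e-08) against the second control, again without overlap. In flox/flox spheroids it ran from 36.2 to 106 CPM (median 74.3) with DMSO and from 117 to 268 (median 167) with 4-OHT. Those ranges did not overlap, and the difference was 1.23 ± 0.27 (adjusted p = 0.00277). Tead1 starts 1.6 megabases from the end of Eif4g2 on the same chromosome, so in comparisons between genotypes the loss of Eif4g2 and any sequence difference around Tead1 that travels with the flox allele cannot be told apart. In organoid set 1 and the flox/flox spheroids the same flox/flox lines stand on both sides of the comparison, and Tead1 was higher with 4-OHT in 3 of 3 and 6 of 6 lines.

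Tead2 (chromosome 7, 45215753 to 45233644, plus strand), known for its expression in the early embryo, was the only member that fell in the organoid and spheroid deletion comparisons. Organoid set 1 read 13.75, 11.6 and 10.6 CPM with DMSO and 3.67, 2.29 and 1.89 with 4-OHT. Each line kept 0.179 to 0.267 of its DMSO level, and Tead2 fell by 2.19 ± 0.27 (adjusted p = 0.00128) on the log2 scale. Flox/flox organoids of set 2 read 4.41, 4.37, 4.81 and 4.895 CPM, a narrow band, against 9.44, 17.4, 17.8 and 14.6 in flox/+ and 20.9, 22.4, 21.3 and 21.35 in CreER-only. The log2 fold change was -1.68 ± 0.16 (adjusted p = 1.45e-06) against flox/+ and -2.21 ± 0.16 (adjusted p = 9.79e-08) against CreER-only, and no ranges overlapped. The flox/+ libraries also lay below every CreER-only library, a difference that was not called. Tead2 in flox/flox spheroids ran from 9.06 to 22.4 CPM (median 12.3) with DMSO and from 2.41 to 8.04 (median 6.41) with 4-OHT. It was lower in 6 of 6 lines without overlap (-1.09 ± 0.27, adjusted p = 0.00746). The flox/+ spheroids read 33.9, 19, 24.55, 14 and 19.6 CPM with DMSO and 29.6, 22.55, 23.4, 17.6 and 21.5 with 4-OHT, so all 5 treated libraries were above all 6 flox/flox 4-OHT libraries (-1.89 ± 0.28 for flox/flox against flox/+, adjusted p = 0.000259).

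Tead4 (chromosome 6, 128224288 to 128300823, minus strand), the TEAD of the trophectoderm, showed the largest rises of the family. In organoid set 1 it read 8.78, 9.67 and 6.51 CPM with DMSO and 54.9, 41.1 and 30.9 with 4-OHT. Every line rose by 4.25-fold or more, and the log2 fold change was 2.34 ± 0.24 (adjusted p = 0.000795). Flox/flox organoids of set 2 read 8.02, 9.41, 21.9 and 14.7 CPM against 3.5, 2.17, 3.45 and 3.06 in flox/+ and 6.1, 4.455, 3.79 and 3.485 in CreER-only. All flox/flox libraries were higher, by 2.15 ± 0.30 (adjusted p = 7.56e-05) over flox/+ and 1.60 ± 0.29 (adjusted p = 0.000623) over CreER-only. Tead4 in flox/flox spheroids ran from 6.92 to 25.3 CPM (median 14.6) with DMSO and from 22.6 to 68.5 (median 44.3) with 4-OHT, with some overlap between lines but a rise in 6 of 6 (1.47 ± 0.39, adjusted p = 0.0123). Tead3 (chromosome 17, 28331671 to 28350817, minus strand) stayed apart from its family. Its means in organoid set 1 were 33.8 CPM with DMSO and 33.6 with 4-OHT. A difference was called in 1 culture comparison alone, flox/flox over CreER-only organoids (0.29 ± 0.09, adjusted p = 0.0174), where the means were 17.4 ± 1.09 (SD) and 14.2 ± 0.617 CPM.

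Both LATS kinase genes, which encode inhibitors of YAP and TAZ, also rose. Lats1 (chromosome 10, 7681214 to 7716460, plus strand) went from 96.2, 89.7 and 106 CPM to 139, 141 and 143.5 in organoid set 1, by 0.54 ± 0.08 (adjusted p = 0.00294). In organoid set 2 it was 0.39 ± 0.05 (adjusted p = 1.08e-05) above flox/+ and 0.31 ± 0.05 (adjusted p = 7.79e-05) above CreER-only. In flox/flox spheroids it ran from 96.4 to 111 CPM (median 107) with DMSO and 142 to 183 (median 152) with 4-OHT, without overlap (0.56 ± 0.14, adjusted p = 0.00735). Lats2 (chromosome 14, 57689662 to 57758388, minus strand) is expressed at a far lower level and moved by a larger factor. The organoid set 1 libraries read 5.56, 4.85 and 4.25 CPM with DMSO and 15.1, 14.1 and 10.9 with 4-OHT, a rise of 1.45 ± 0.18 (adjusted p = 0.00144). Flox/flox organoids of set 2 read 4.01, 5.1, 11.6 and 6.51 CPM and flox/+ 3.235, 3.19, 2.375 and 1.41, higher in flox/flox without overlap (1.44 ± 0.32, adjusted p = 0.00229). The CreER-only libraries, at 4.68, 3.705, 4.765 and 3.42 CPM, overlapped flox/flox and were not called different. In flox/flox spheroids it ran from 2.09 to 10.5 CPM (median 6.44) with DMSO and from 7.03 to 20.55 (median 16.4) with 4-OHT. The ranges overlapped, all 6 lines rose, and the difference was 1.28 ± 0.39 (adjusted p = 0.0241), with adjusted p up to 0.0596 when single libraries were left out. The call was kept with line as a block.

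Of the readout genes, Amotl2 (chromosome 9, 102716672 to 102733418, plus strand), an angiomotin-family protein that binds YAP, rose in cultures. It read 32.9, 39.2 and 23.4 CPM with DMSO and 128, 111 and 61.6 with 4-OHT in organoid set 1, a rise of 1.65 ± 0.30 (adjusted p = 0.0054) without overlap. For set 2, flox/flox read 28.5, 28.95, 52.5 and 33.8 CPM and flox/+ 20, 23.9, 22.5 and 22.3, a difference of 0.70 ± 0.17 (adjusted p = 0.00438). The CreER-only libraries read 29.6, 31.3, 28.8 and 24.6 CPM, inside or near the flox/flox range, and were not called different. Amotl2 in flox/flox spheroids ran from 10.25 to 59.6 CPM (median 35.8) with DMSO and from 26.3 to 163 (median 101) with 4-OHT, higher in 6 of 6 lines with overlapping ranges (1.49 ± 0.44, adjusted p = 0.0222). That call was lost with the 2 groups fitted alone (adjusted p = 0.0717), without the low-count filter (0.0545) and in 3 of 12 fits without 1 library. It was kept with the 2 groups fitted alone and line as a block.

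Ankrd1 (chromosome 19, 36111965 to 36119844, minus strand), a cardiac-type ankyrin repeat protein and YAP target, was a culture gene in these data. It had no read in any Vil1-CreER tissue library, and 3, 7 and 1 reads, each from a single library, in the Rosa26-CreER heterozygous crypt, homozygous crypt and homozygous villus groups. It had 6 to 31 reads per group of 4 in organoid set 2 and 9 to 13 in the A-485 series. In organoid set 1 it read 7.25, 5.02 and 6.78 CPM with DMSO and 16.5, 12.7 and 7.41 with 4-OHT. The groups just missed overlapping, and the rise of 0.94 ± 0.30 (adjusted p = 0.0455) was lost in 5 of the 6 fits without 1 library. Spheroid means were 3.4 ± 3.16 and 5.74 ± 4.08 CPM in flox/flox and 5.65 ± 3.87 and 7.05 ± 3.16 in flox/+ with DMSO and 4-OHT. Those ranges overlapped and nothing was called.

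**Figure D3:**
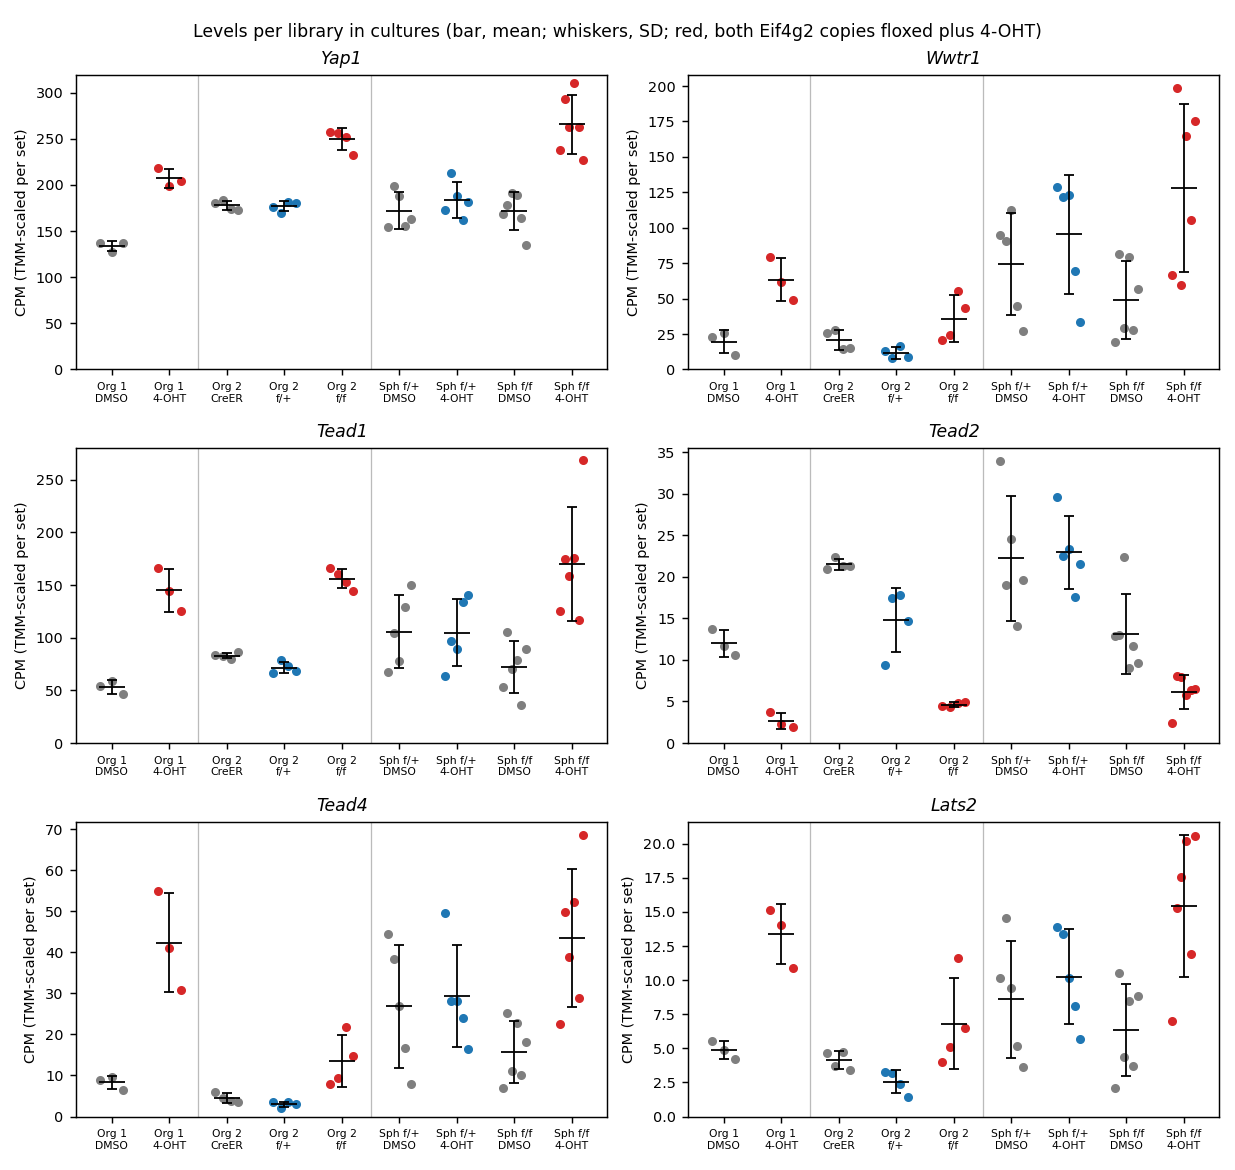
CPM (y axis) of Yap1, Wwtr1, Tead1, Tead2, Tead4 and Lats2 in the 9 organoid and spheroid groups of the deletion experiments (x axis); points are libraries, bars group means and whiskers 1 SD. Tead2 is lowest in the 3 deleted groups (mean 2.62, 4.62 and 6.16 CPM) and Yap1 is highest in them within each set.

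The crypt markers (Lgr5, Olfm4, Ascl2, Lyz1 and Mki67, genes of stem cells, Paneth cells and division) fell beside these changes. Their summed level was 1726 to 2138 CPM with DMSO and 355 to 479 with 4-OHT in organoid set 1. It was 7903 to 9227 in flox/+ and 1945 to 2913 in flox/flox organoids, and 90.3 to 5197 and 33.6 to 843 in flox/flox spheroids. Of these 5 genes, 4 were called lower in organoid set 1, 4 in flox/flox against flox/+ organoids and 1 in flox/flox spheroids. Of 5 villus markers, 4, 2 and 1 were called lower in the same comparisons, with summed levels of 5675 to 8074 CPM with DMSO and 2683 to 3812 with 4-OHT in organoid set 1. The part of either fall in the member differences was not tested. Whether 4-OHT acted differently by genotype was tested directly in spheroids. As an interaction, 0 of 10 members passed (1.62% of all genes did). At an unadjusted p under 0.05 were 5 members and 2096 of all 15032 tested genes. With line as a block, 8 of 10 passed, where 18.3% of all genes did: Yap1 (0.54), Wwtr1 (1.06), Tead1 (1.27), Tead4 (1.25), Lats1 (0.52), Lats2 (1.05) and Amotl2 (1.26) had a larger and Tead2 (-1.18) a smaller log2 response in flox/flox lines. Since each line was sampled with and without 4-OHT, the lines pair these samples.

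In crypts the Tead1 rise and the Tead2 fall were seen again with each Cre driver. Homozygous Rosa26-CreER crypts read 1.02, 2.18, 3.06 and 1.6 CPM of Tead2 and the heterozygous ones 6.3, 8.26, 5.48, 5.36 and 5.98. The groups were well apart, and Tead2 was lower by -1.60 ± 0.31 (log2, adjusted p = 0.0078). Homozygous Vil1-CreER crypts read 1.38, 2.19 and 1.21 CPM against 7.27, 7.765, 4.475 and 5.98, again without overlap (-1.98 ± 0.29, adjusted p = 0.00185). Tead1 read 55.1, 46.45, 63.4 and 45.9 CPM against 43.2, 42.8, 40.2, 30 and 32.8 in Rosa26-CreER crypts, a rise of 0.54 ± 0.15 (adjusted p = 0.0338). That call was lost in 6 of 9 fits without 1 library (adjusted p up to 0.0888). In Vil1-CreER crypts it read 83.7, 78.7 and 83.2 CPM against 53.2, 43.9, 52.3 and 50.3 (0.72 ± 0.08, adjusted p = 0.000697). The Vil1-CreER groups were further apart than the spread within either.

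Further members changed with one driver. In Vil1-CreER crypts Yap1 read 111, 106 and 109 CPM against 72.7, 62.8, 76.75 and 81.5 (0.57 ± 0.09, adjusted p = 0.00315). All homozygous libraries were higher. Tead4 read 2.415, 1.84 and 2.22 CPM against 0.618, 0.639, 0.883 and 0.582 there (1.67 ± 0.27, adjusted p = 0.00292), a low level in both groups, and Tead3 was lower (means 11.3 ± 1.53 and 16.8 ± 2.65 CPM, -0.56 ± 0.15, adjusted p = 0.0248, lost in 4 of 7 fits without 1 library). In Rosa26-CreER crypts Lats2 was higher, at 7.63, 6.24, 9.71 and 2.23 CPM against 3.04, 1.74, 2.06, 4 and 1.71 (1.44 ± 0.44, adjusted p = 0.0462), with the lowest homozygous library inside the heterozygous range, a call lost in 7 of 9 fits without 1 library (adjusted p up to 0.125). Wwtr1 and Amotl2 were called in neither crypt set, with means of 7.63 against 5.86 CPM and 8.47 against 6.87 CPM in Rosa26-CreER. Whether the drivers differ was not tested.

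In villi, Tead1 rose with each driver. Homozygous Rosa26-CreER villi read 19.1, 81.6, 74.15, 51.6 and 11.2 CPM and the heterozygous ones 8.645, 5.74, 19.2, 12 and 7.46. The homozygous libraries split widely and the ranges overlapped (2.10 ± 0.57, adjusted p = 0.0187). That call was lost in 4 of 8 alternative fits (adjusted p up to 0.149) and in 0 of 10 without 1 library. Homozygous Vil1-CreER villi ran from 25.8 to 42.15 CPM (median 31) against 23.1, 13.5, 11.3 and 7.92, without overlap (1.25 ± 0.25, adjusted p = 0.00151). In Rosa26-CreER villi Tead3 (30.8 ± 3.56 against 22.4 ± 2.21 CPM, SD; 0.41 ± 0.10, adjusted p = 0.0117) and Lats1 (96.6 ± 10.3 against 71.6 ± 6.84 CPM; 0.38 ± 0.10, adjusted p = 0.0113) also rose. Tead2 was too low in villi to be tested, at 0 to 0.39 CPM.

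The genotype effect itself differed between villi and crypts for Tead3 and Lats2 with both drivers. With 2 of 9 members called in each test (11.5% of all genes for Rosa26-CreER, 15.5% for Vil1-CreER), the Tead3 effect was larger in villi by 0.81 ± 0.21 (log2, adjusted p = 0.0205) and 0.74 ± 0.19 (adjusted p = 0.0165). The Lats2 effect was smaller in villi by -1.46 ± 0.44 (adjusted p = 0.0427) and -1.35 ± 0.44 (adjusted p = 0.0449). The villus and crypt libraries of most mice come from the same animal, by the animal numbers in their library names. With animal as a block the calls were 0 and 1 of 9, with Tead3 at adjusted p = 0.05001 and 0.0726 and Lats2 at 0.152 and 0.0449. Without 1 library Lats2 was lost in 14 of 19 and 14 of 17 fits.

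Several measures moved with genotype in tissue. Summed crypt markers were 13050 to 17790 CPM in heterozygous and 1275 to 5874 in homozygous Rosa26-CreER crypts, and 7037 to 9552 and 587 to 1215 in Vil1-CreER crypts. Summed stromal markers, with all 10 genes detected, were 23.9 to 839.8 and 37.85 to 2023 CPM in the Rosa26-CreER crypts and 4.11 to 27 and 14.5 to 40.1 in the Vil1-CreER crypts, and 1.585 to 6.32 and 18 to 34 in the Vil1-CreER villi. Summed immune markers (8 genes) were 105 to 366 and 74 to 1641 CPM in the Rosa26-CreER crypts, 68.5 to 482 and 325 to 442 in the Vil1-CreER crypts, and 246 to 427 and 49.2 to 189 in the Vil1-CreER villi. Mitochondrial reads were 8.55% ± 2.5 of the total in heterozygous and 18.9% ± 5.02 in homozygous Rosa26-CreER crypts, and 23.3% ± 6.07 and 35.7% ± 4.98 in the Vil1-CreER crypts. Y-linked transcripts were present in 5 of 5 heterozygous and 1 of 4 homozygous crypt libraries of that set, and in 5 of 5 and 2 of 5 of the villi. The part of these in the member differences was not tested beyond the fit with Y-linked transcripts as a covariate. In that fit Tead2 was the only member still called in Rosa26-CreER crypts, while Tead1 (adjusted p = 0.116) and Lats2 (0.12) were not. In Rosa26-CreER villi, Tead1 (adjusted p = 0.0546) and Lats1 (0.157) were no longer called. The animal numbers in the labels fall into a lower and a higher series, and within the higher series alone Tead1 (adjusted p = 0.0974), Tead2 (0.0772) and Lats2 (0.241) of the crypts were not called either. In the villi, Tead1 was called in neither series alone (adjusted p = 0.109 in the lower and 0.149 in the higher). The same held for Tead3 (0.129 and 0.117).

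With A-485, more members and more of all genes were called at each higher dose, in organoids that kept Eif4g2 (1110 to 1711 CPM in all 4 groups). At 3 µM 4 of 9 tested members changed, where 19.2% of all tested genes were called. At 5 µM it was 5 of 9, near the 49.6% of all genes, and at 10 µM 7 of 9 (62.0%). The 3 doses share the 4 DMSO libraries. Wwtr1 read 15.2, 10.1, 13.6 and 17.3 CPM in lines 1 to 4 with DMSO, and 45.5, 41.8, 33.1 and 62.8 at 3 µM. It read 55, 58.4, 56.7 and 78.15 CPM at 5 µM and 87.5, 93.1, 88.4 and 121 at 10 µM. Every line was higher at each higher dose, line 4 was highest throughout, and the log2 fold changes were 1.71 ± 0.20 (adjusted p = 1.07e-05), 2.14 ± 0.20 (1.34e-07) and 2.79 ± 0.20 (2.08e-09). Yap1, the paralogue, was called at no dose, with means of 150.1 CPM in DMSO and 164, 158 and 168 at the 3 doses.

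Tead2 and Tead1 were both higher than with DMSO in 4 of 4 lines at 3 µM, and at 5 and 10 µM Tead2 was lower and Tead1 higher in 4 of 4 lines. Tead2 read 25, 17.7, 14.5 and 21.1 CPM with DMSO and 32.9, 38.2, 33 and 26.3 at 3 µM, where all 4 lines lay above all DMSO libraries although the rise was not called. At 5 µM it read 17.6, 13.9, 10.9 and 5.59 CPM, overlapping DMSO and again not called, and at 10 µM 1.65, 1.41, 0.1325 and 0.776 (23, 21, 2 and 7 reads). With 10 µM it was thus near the detection limit in every line (-4.28 ± 0.45, adjusted p = 1.88e-07). With line as a block the fall at 5 µM passed the test (-0.77, adjusted p = 0.0417). Tead1 read 76, 69.05, 74.5 and 80.3 CPM with DMSO, 91.5, 86.7, 85.35 and 101.5 at 3 µM, 113, 123, 94.6 and 147 at 5 µM, and from 176.5 to 269.9 at 10 µM, with 3 of the 4 lines at 245 or more. No dosed library fell into the DMSO range, and the change was called at 5 µM (0.67 ± 0.14, adjusted p = 0.000577) and 10 µM (1.65 ± 0.14, adjusted p = 1.35e-08).

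Tead4 read 3.7, 1.2, 1.615 and 1.935 CPM with DMSO, 6.17, 6.28, 4.26 and 3.48 at 3 µM, 11.5, 8.46, 7.28 and 9.64 at 5 µM, and 11.5, 20.2, 12.2 and 7.31 at 10 µM. The 3 µM range overlapped that of DMSO, and the higher doses did not. The log2 fold changes were 1.25 ± 0.37 (adjusted p = 0.0231), 2.12 ± 0.37 (0.000125) and 2.60 ± 0.37 (8.53e-06). The first was lost in 5 of 8 fits without 1 library. Tead3 was called at no dose (means 14.2, 10.1, 15.9 and 17.7 CPM), and line 4 at 3 µM gave 2.25 CPM against 9.91 to 14.6 in the other lines.

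Lats2 gave the largest log2 rise of the members at 5 and 10 µM, and Wwtr1 at 3 µM. It read 1.08, 3.6, 0.888 and 2.71 CPM with DMSO, 4.95, 5.78, 4.09 and 10.4 at 3 µM, 9.81, 13.5, 11.5 and 13.4 at 5 µM, and 22.6, 29.3, 26.8 and 25.6 at 10 µM. The groups were in dose order without overlap except for lines at 3 and 5 µM. Its log2 fold changes were 1.60 ± 0.37 (adjusted p = 0.00522), 2.54 ± 0.37 (1.96e-05) and 3.65 ± 0.38 (1.63e-07). Amotl2 read 12.1, 9.99, 11.5 and 12.5 CPM with DMSO, 33.7, 46, 35.1 and 21.5 at 3 µM, 44.3, 72.5, 38.7 and 68.5 at 5 µM, and 67.4, 112, 91.4 and 84.1 at 10 µM. Every dosed library was above every DMSO library, by 1.56 ± 0.24 (adjusted p = 0.000144), 2.28 ± 0.24 (4.61e-07) and 2.94 ± 0.24 (8.93e-09). Lats1 was called at 10 µM (0.55 ± 0.15, adjusted p = 0.00306; means 190.3 ± 36.4 and 130 ± 7.05 CPM), where line 4 stood at 244 against 168 to 179. Summed crypt markers fell from 7198 to 9044 CPM with DMSO to 802 to 1799, 226 to 298 and 73.2 to 102 at the 3 doses, and stromal and immune markers stayed at 2.23 CPM or less. Summed villus markers (5 genes) went from 2313 to 4185 CPM with DMSO to 1238 to 2557, 1044 to 2605 and 42.3 to 208 CPM, with 3, 3 and 5 of 5 called lower. The part of either marker list in these changes was not tested.

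**Figure D4:**
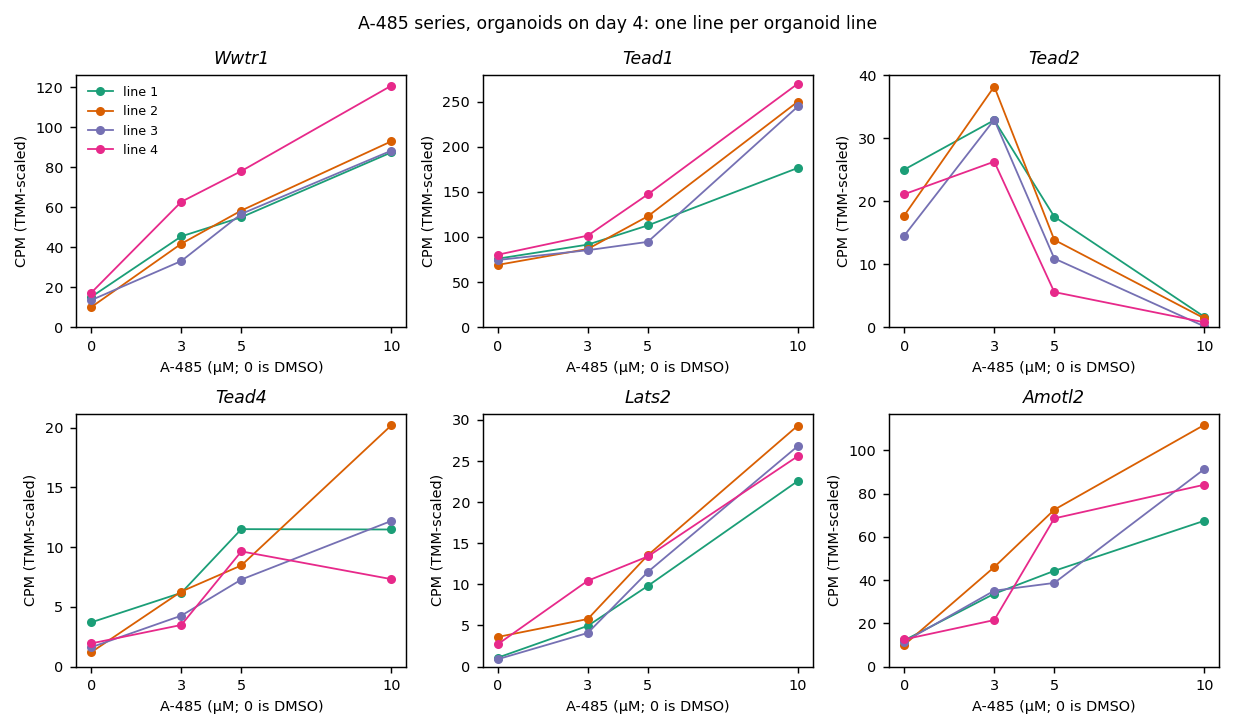
CPM (y axis) of Wwtr1, Tead1, Tead2, Tead4, Lats2 and Amotl2 by A-485 dose in µM (x axis), with 1 line per organoid line. Lats2 and Wwtr1 climb in all 4 lines, whereas Tead2 is higher at 3 µM than in DMSO in all 4 lines and lies between 0.1325 and 1.65 CPM at 10 µM.

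Some members also differed between crypts and villi and between fetal and adult cultures without any homozygous deletion. In the 5 heterozygous Rosa26-CreER mice, 6 of 9 members differed between crypts and villi, a smaller share than the 77.1% of all genes that did. Tead2 stood at 6.28 ± 1.17 (SD) CPM in crypts and 0.126 ± 0.166 in villi (log2 5.73 ± 0.63, adjusted p = 4.22e-06). Tead1, Wwtr1 and Tead4 were also higher in crypts of all 5 mice, by 1.83 (adjusted p = 0.000104), 2 (0.000126) and 1.71 (0.000247). Lats2 (2.51 ± 0.993 against 14.7 ± 3.08 CPM, -2.56 ± 0.25, adjusted p = 1.32e-06) and Amotl2 (6.87 ± 1.9 against 22.1 ± 2.68 CPM, -1.69 ± 0.18, adjusted p = 2.61e-06) were lower in crypts of all 5 mice. Yap1, at 78 and 91.3 CPM, was not called, but with the mouse as a block it was lower in crypts (-0.24, adjusted p = 0.0243). Summed stromal markers were 23.9 to 839.8 CPM in these crypts and 2.19 to 101 in the villi, with 4 of 9 tested genes called higher in crypts, and their part in these differences was not tested.

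Between flox/+ spheroids and flox/+ organoids, both given 4-OHT and scaled together, 7 of 10 members were higher in spheroids and none lower (47.9% of all genes were called). Culture set and fetal origin coincide here and cannot be told apart. Ankrd1 went from 6 reads in 3 of 4 organoid libraries (0.0841 ± 0.0788 CPM) to 7.33 ± 3.29 CPM (adjusted p = 0.00013). Tead4 was at 30.4 ± 12.7 against 2.91 ± 0.591 CPM (log2 3.38 ± 0.33, adjusted p = 8.74e-05) and Wwtr1 at 99 ± 43.3 against 11.1 ± 3.75 (3.15 ± 0.43, adjusted p = 0.000399). Lats2 (2.13, adjusted p = 0.000918), Amotl2 (1.51, 0.000216), Tead2 (0.75, 0.015) and Tead1 (0.67, 0.027) followed. The Tead1 ranges overlapped, and that call was lost in 4 of 9 fits without 1 library (adjusted p up to 0.0732). Summed stromal markers were 3.76 to 176 CPM in these spheroids and 0.509 to 1.85 in the organoids, with 3 of 4 tested genes called higher, and their part in these differences was not tested. Yap1, at 190.3 ± 19.6 and 169 ± 5.68 CPM, was not called.

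Upstream of these genes, the 24 listed regulators (kinases, scaffolds and junction proteins of the pathway) held more called rises than falls in each comparison of homozygous deletion. In organoid set 1, 13 of 22 tested rose and 1 fell, where 35.4% of all genes were called (median log2 fold change 0.46, against 0.03 over all genes), 12 rose and 3 fell in flox/flox against flox/+ organoids (46.8% of all genes called), 11 and 3 against CreER-only (45.3%), and 11 and 2 in flox/flox spheroids (19.1%). In tissue the counts were 8 and 3 of 22 in Rosa26-CreER crypts (20.2% of all genes called), 12 and 2 of 20 in their villi (33.2%), 7 and 2 of 22 in Vil1-CreER crypts (29.3%) and 9 and 3 of 20 in their villi (42.5%). Wwc2, a KIBRA-family scaffold that promotes LATS activity, gave the largest rise in each tissue set, 2.71 ± 0.31 (adjusted p = 0.000858), 4.495 ± 0.29 (3.75e-06), 3.23 ± 0.30 (0.000258) and 4.32 ± 0.27 (1.27e-07) in the same order. In heterozygous Vil1-CreER villi it stood at 0.429 to 1.45 CPM and in homozygous ones at 16.3 to 20.7. Ajuba, a LIM protein that binds and restrains LATS, rose by 2.53 ± 0.25 (adjusted p = 0.000731) in organoid set 1 and 1.96 ± 0.36 (0.0008) in flox/flox spheroids. Wtip, of the same LIM family, rose by 3.48 ± 0.46 (0.000452) in Rosa26-CreER villi and Ptpn14, a phosphatase that retains YAP, by 2.06 ± 0.30 (0.00243) in organoid set 1.

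Nf2, which encodes merlin, an activator of LATS at the membrane, went the other way. It read 122 to 126 CPM with DMSO and 70.7 to 80.8 with 4-OHT in organoid set 1 (-0.72 ± 0.08, adjusted p = 0.000894). In organoid set 2 it was 78.1 to 90.7 CPM in flox/flox and 141 to 154 in flox/+ (-0.81 ± 0.06, adjusted p = 5.35e-08). It was called lower in all 8 comparisons in which Eif4g2 was deleted from both copies against a control in tissue, organoids or within flox/flox spheroids, by -0.48, -0.76, -0.35 and -0.49 in the 4 tissue sets and -0.80 in spheroids. Between flox/flox and flox/+ spheroids with 4-OHT it was not called lower, and Amot was the only regulator called lower. Amot, the angiomotin gene, fell in 3 tissue sets, most in Rosa26-CreER villi (-1.11 ± 0.17, adjusted p = 0.000746). It was also called lower with 4-OHT within flox/flox spheroids (-0.70 ± 0.22, adjusted p = 0.0315). No regulator was called in flox/+ against CreER-only organoids, for 4-OHT in flox/+ spheroids, or between genotypes with DMSO.

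With A-485, 11, 17 and 18 of 22 regulators rose and 1, 2 and 1 fell at 3, 5 and 10 µM, where the share of all genes called was 19.2%, 49.6% and 62.0%. Wwc2 led at each dose (2.02 ± 0.15, 3.14 ± 0.16 and 3.99 ± 0.16, adjusted p = 3.12e-12 at the highest), followed by Ajuba (1.73, 2.68 and 3.51 ± 0.19). Ajuba stood at 19.4 ± 3.39 (SD, n = 4) CPM with DMSO and 221 ± 23.7 at 10 µM. Vgll4, a TEAD cofactor that competes with YAP, fell at 5 and 10 µM (-0.65 ± 0.22 and -0.86 ± 0.22, adjusted p = 0.0213 and 0.00266). Amot fell at 3 and 5 µM (-0.44 ± 0.09 and -0.46 ± 0.09, adjusted p = 0.0026 and 0.000436). Between crypts and villi 10 of 22 regulators were higher and 8 lower, near the 77.1% of all genes called, led by Ptpn14 (3.75 ± 0.78) and Amotl1 (3.02 ± 1.00) and by Fat1 (-1.56 ± 0.22) and Wwc1 (-1.45 ± 0.07). Between flox/+ spheroids and organoids (47.9% of all genes called) 10 of 22 were higher, led by Ptpn14 (2.82 ± 0.28) and Amotl1 (2.76 ± 0.28), and 3 lower, led by Nf2 (-0.998 ± 0.14).

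Listed YAP and TEAD target genes other than the members were split. Of 17 tested in organoid set 1, 6 rose and 2 fell (35.4% of all genes called), and in flox/flox spheroids 5 rose and 2 fell of 16 (19.1%). In organoid set 2, 4 rose and 1 fell of 13 against flox/+, below the 46.8% of all genes called. Against CreER-only 4 rose and 3 fell of 13 (45.3%). In tissue 2 rose and none fell of 16 in Rosa26-CreER crypts, below the 20.2% of all genes called. In their villi 2 rose and 4 fell of 13 (33.2%), in Vil1-CreER crypts 5 and 2 of 15 (29.3%) and in their villi 4 and 1 of 11, near the 42.5% of all genes. F3, which encodes tissue factor, was the largest rise in each of these comparisons (from 1.49 ± 0.20 against CreER-only to 3.96 ± 0.51 in Vil1-CreER villi). Between genotypes in spheroids with 4-OHT, 2 rose and 1 fell of 16 (10.5% of all genes called). There the called rises were Asap1 and Dock5, without F3. Rbms3, an RNA-binding protein gene, fell in the organoid sets (-1.80 ± 0.41, adjusted p = 0.0136, in set 1), and in Rosa26-CreER villi Cyr61 fell by -2.08 ± 0.24 (adjusted p = 0.000138). A-485 raised 6, 9 and 8 of 14 tested targets at 3, 5 and 10 µM and lowered 0, 2 and 2, beside the 19.2%, 49.6% and 62.0% of all genes called. Ctgf, the most used YAP target, stood at 6.54 ± 2.05 (SD, n = 4) CPM with DMSO, 53.2 ± 20.7 at 3 µM, 157 ± 39.3 at 5 µM and 371 ± 40.5 at 10 µM (log2 4.59 ± 0.30, adjusted p = 4.25e-09, and 5.82 ± 0.31, adjusted p = 1.2e-10, at 5 and 10 µM). Rbms3 and Nuak2 fell at 10 µM (-4.61 ± 0.65 and -4.15 ± 0.56). Axl, a receptor kinase gene with 3 reads over the 4 DMSO libraries, did not follow the dose, at 9.13 ± 2.66 CPM with 3 µM, 2.99 ± 1.56 with 5 µM and 0.237 ± 0.339 with 10 µM. Between flox/+ spheroids and organoids 13 of 16 targets were higher and 2 lower (47.9% of all genes called), led by Fjx1, with 12 reads over the 4 organoid libraries and 31.9 ± 19.95 CPM in the spheroids, and in crypts against villi 4 of 13 were higher and 7 lower (77.1% of all genes called), led by Nt5e (-4.84 ± 0.44) and Nuak2 (-2.63 ± 0.14).

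The genes whose group means followed Yap1 most closely over the 21 groups, among 11249 genes and after centring log2 CPM within each set, were Brwd3 (Pearson r = 0.915), Dhx8 (0.892), Sos1 (0.883), Homer1 (0.871) and Rasa1 (0.87). For Ankrd1, among 15241 genes, they were Eprn (0.889), Galnt14 (0.88), Pax9 (0.877), Fst (0.79) and Krt79 (0.785). The points share libraries and depth, and the values are descriptions.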

How the data were processed

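Raw counts per gene from 4 tables deposited by the authors were used. Per the submitters' processing notes, reads were aligned with HISAT2 2.0.5 to GRCm38 (mm10). The counting tool, the annotation and the strand setting of the counting are not given in the sources used here. Libraries were poly-T selected and directional, per the labels' protocols. Organoids in Wnt3a-supplemented medium, which the series' design names, were not analysed here, and 0 columns of samples outside the series were found.

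Genes were tested on the counts with edgeR 4.0.16 (R 4.3.3): low counts removed with filterByExpr, TMM factors, a robust quasi-likelihood F-test, and p-values adjusted by Benjamini-Hochberg over all tested genes, with calls at an adjusted p under 0.05. The scripts were tested on simulated data. Levels are CPM scaled with TMM factors. Comparisons between genes divide by the length in the tables. All 10 members, 24 regulators and 18 targets were followed, and of the last 2 lists the 2 called genes with the largest rise and fall per comparison were named. The members and lists were chosen with earlier results of these data known. Promoter windows were read from RefSeq (GRCm38.p6).

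Same-numbered organoid set 1, spheroid and A-485 samples come from the same line. Animals were matched between crypts and villi by the numbers in the library names, which match the replicate numbers in heterozygous mice but not in all homozygous mice. The lowest correlation of paired deviations was 0.318 in organoid set 1, 0.385 in flox/flox and 0.626 in flox/+ spheroids, 0.0556 in the A-485 series and -0.00247 between heterozygous Rosa26-CreER crypts and villi. The fits with this block are alternatives, as are DESeq2 1.42.0, its size factors, no filter, other sample sets and covariates, and leaving out each library.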

Additional observations from a re-analysis of the deposited data

Results flagged for a closer look

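Single libraries stood apart from their group by Dixon's ratio in 12 of 176 groups of member values, and chance flags about 1 in 20. In the A-485 series, line 4 gave 5 of them: Wwtr1 at 78.15 CPM with 5 µM (others 55 to 58.4) and 120.9 with 10 µM (87.5 to 93.1), and Lats1 at 215.8, 188.8 and 244.4 CPM with 3, 5 and 10 µM (others 143 to 150.3, 146 to 152 and 168 to 179). With DMSO the same line was within the Lats1 range of the others, at 132.4 CPM.

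The remaining ones were spread over the sets. Tead2 of flox/flox spheroid line 3 with DMSO was at 22.36 CPM (others 9.06 to 13), Tead3 of CreER-only organoid replicate 3 at 13.32 (others 14.45 to 14.6), and Lats1 of heterozygous Vil1-CreER villus replicate 1 at 110.1 (others 92.3 to 95.3). Ankrd1 stood out where 1 library had reads: 0.1459 CPM (7 reads) in homozygous Rosa26-CreER crypt replicate 4, 0.08024 (3 reads) in heterozygous crypt replicate 3, 0.04824 (1 read) in homozygous villus replicate 2, and 0.7433 CPM in A-485 line 2 at 3 µM.

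The genotype effect differed between villi and crypts, by the interaction test, for Tead3 (0.81 with Rosa26-CreER and 0.74 with Vil1-CreER, log2, larger in villi) and Lats2 (-1.46 and -1.355, smaller in villi). Crypts and villi share animals, and with the animal as replicate block Tead3 was not called for either driver (adjusted p = 0.05001 and 0.0726) nor Lats2 for Rosa26-CreER (0.152). The Lats2 calls were also lost in 14 of 19 and 14 of 17 fits without 1 library.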

How the results depend on the processing

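The 78 called member differences were refitted 1082 times under the alternatives. In 973 fits direction and call were kept, in 109 the call was lost and in 0 the direction reversed; 56 of the 78 were called in every fit run. Of 110 named list genes, 33 lost the call at least once in 1600 fits, with 0 reversals.

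The number of called members changed as follows. In Rosa26-CreER crypts, 3 became 1 with Y-linked transcripts as a covariate, 0 within the higher series of animal numbers and 1 to 4 without single libraries (1 without homozygous replicate 1 or heterozygous replicate 2, 3 or 5). In Rosa26-CreER villi, 3 became 1 with that covariate, 0 within the lower number series and 1 within the higher. DESeq2's Wald test gave 2 in place of 1 in Vil1-CreER villi (1 to 2 without single libraries). In flox/flox spheroids leaving out libraries gave 5 to 8, the lowest without line 1 with DMSO. Between genotypes with 4-OHT, the replicate block with those 2 groups alone gave 0 in place of 2, though the number does not mark a shared line there. For the difference of genotype effects between villi and crypts, 2 became 4 with DESeq2, 1 without filter, 0 with the animal as replicate block and 1 to 3 without single libraries for Rosa26-CreER, and 1 without filter, 1 with the block and 0 to 2 for Vil1-CreER. The spheroid interaction, 0 members, became 1 with DESeq2 and 8 with the line as replicate block. The line block pairs the samples with and without 4-OHT of the same line. The causes of these changes were not tested. Beyond these, a block by line added Lats1 at 3 and 5 µM A-485 (0.31 and 0.28, adjusted p = 0.0223 and 0.0175). A block by replicate number added Lats2 in Vil1-CreER crypts (1.04, adjusted p = 0.027). That block took away Tead3 in Vil1-CreER crypts (adjusted p = 0.0716), Tead1 in Rosa26-CreER crypts (0.06002) and Tead1 between fetal spheroids and adult organoids (0.0523). In these crypt and fetal against adult comparisons the number is not a shared source. The fits by animal series and the shares without gene length were chosen after seeing the data. Without gene length 89 of 105 TEAD and coactivator shares moved by over 1 SD, since the genes differ in length. Leaving out the filter moved the median log2 difference of all genes by over 0.1 between crypts and villi (0.0921 to 0.354). Tead2 at 10 µM A-485 and Ankrd1 outside organoid set 1 and the spheroids rest on few reads. Intervals between replicates cover the spread of these libraries only.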
